A study of Rattus norvegicus with 6 samples.

Results

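The S100 proteins and the annexins are 2 families of calcium-binding proteins that act at membranes and on the cytoskeleton, and 10 of their genes are described here. The genes were chosen by name, with earlier results of these data known. They are S100a4, S100a6, S100a8, S100a9, S100a10 and S100a11, and the annexins Anxa1, Anxa2, Anxa3 and Anxa5. Each had a probe set annotated to that symbol alone, and where a gene had several, the brightest on average was used. The 10 genes are part of 14497 genes with a single symbol on the arrays. Of these 10 genes, 8 reached the 40th percentile of all probe sets on at least 1 array and were tested together with the other genes above that level, 10947 in all. S100a8 and S100a9 did not.

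The animals were male Sprague-Dawley rats, and RNA of their brains was hybridised to Affymetrix arrays. Young and aged rats were studied without a stroke (naive) and 3 d or 14 d after an infarct, which was made by briefly hooking up the middle cerebral artery. Stroke tissue was dissected from around the infarct, and naive tissue is labelled as healthy brain, with no region named, so a regional difference cannot be told apart from the stroke. Young rats were 3 to 4 months old after stroke and 3 to 5 months when naive. Aged rats were 19 to 20 months after stroke and 18 to 20 months when naive. Each of the 6 groups was 1 array. Its RNA was pooled, over 19 rats for each young and 23 for each aged stroke group, and over 15 for each naive group. No group had a replicate, and naive rats had no sham operation that the labels mention. The values are taken as log2 signals, and array medians lay between 7.09 and 7.15. Tests treat the young and the aged array of a time point as repeated measurements, with age as an additive term in limma. Errors are standard errors of that fit, with 2 arrays per time point, and genes passed at a Benjamini-Hochberg adjusted p under 0.05. In RNA of whole tissue, more cells of a type cannot be told apart from more RNA per cell.

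S100 proteins are dimers of helix-loop-helix (EF-hand) subunits that change shape when they bind calcium and then dock on partner proteins. Annexins bind acidic phospholipids when calcium rises and help to seal, bend and link membranes. The families meet in complexes: S100a10 joins Anxa2, and S100a11 joins Anxa1. S100a8 and S100a9 form calprotectin, a protein of neutrophils and early monocytes that activates innate receptors when it is released. In the brain several of these genes are known as genes of reactive glia, of vessels and of phagocytes.

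Because most of the 10 genes moved together, the sequence before their start sites is shown for some. RefSeq promoter windows (build GRCr8, 250 bases before to 50 after the gene start) were found for 8 of the 10 genes, all but S100a8 and S100a10. Letter motifs were searched on both strands. The AP-1 motif TGANTCA was found in the window of Anxa2 alone among the 8, and in 7.33% of all 27457 windows. The C/EBP motif TTGCNNAA was found in that of Anxa1 (10.5% of all windows). For NF-kB a loose pattern of 10 bases was searched, in which 4 positions could be any base. It was found in the windows of S100a4, S100a6, S100a11, Anxa1 and Anxa3 (19.6% of all). A match to it is labelled NF-kB here, but whether it fits a stricter NF-kB consensus was not tested. The TATA box TATAAA was found in the windows of S100a4, S100a9, Anxa1 and Anxa2 (14.3% of all). The STAT motif TTCNNNGAA was found in none of the 8 (8.68% of all), and the window of Anxa5 held none of the 5 motifs. The 250 bases before the start are shown for the 4 genes with the largest fitted rises at 3 d, with matches in capitals and no overlap between matches. They are S100a11, chr2:181874882-181875131, plus strand; Anxa2, chr8:78986002-78986251, plus strand; S100a4, chr2:178388279-178388528, plus strand; and Anxa1, chr1:227303733-227303982, minus strand. A match is a run of letters, and no binding was measured.
S100a11: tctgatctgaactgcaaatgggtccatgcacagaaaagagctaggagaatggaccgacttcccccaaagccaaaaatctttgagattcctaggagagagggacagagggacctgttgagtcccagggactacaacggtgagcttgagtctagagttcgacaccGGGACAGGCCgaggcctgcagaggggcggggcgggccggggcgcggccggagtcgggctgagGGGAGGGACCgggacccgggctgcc
Anxa2: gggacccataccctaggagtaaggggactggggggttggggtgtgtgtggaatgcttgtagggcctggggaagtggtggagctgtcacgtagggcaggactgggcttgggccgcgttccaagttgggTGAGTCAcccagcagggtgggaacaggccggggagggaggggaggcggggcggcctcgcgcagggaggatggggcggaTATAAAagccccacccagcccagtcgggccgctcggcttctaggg
S100a4: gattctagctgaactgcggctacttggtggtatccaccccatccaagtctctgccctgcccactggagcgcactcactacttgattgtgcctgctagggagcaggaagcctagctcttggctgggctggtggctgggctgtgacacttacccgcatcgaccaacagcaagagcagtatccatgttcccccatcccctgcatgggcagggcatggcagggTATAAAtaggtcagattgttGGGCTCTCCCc
Anxa1: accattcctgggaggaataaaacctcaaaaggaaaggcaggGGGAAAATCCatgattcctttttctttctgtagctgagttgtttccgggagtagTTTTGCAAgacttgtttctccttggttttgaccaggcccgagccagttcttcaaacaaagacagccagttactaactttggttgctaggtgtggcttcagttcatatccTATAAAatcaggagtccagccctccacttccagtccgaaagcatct

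**Figure D1:**
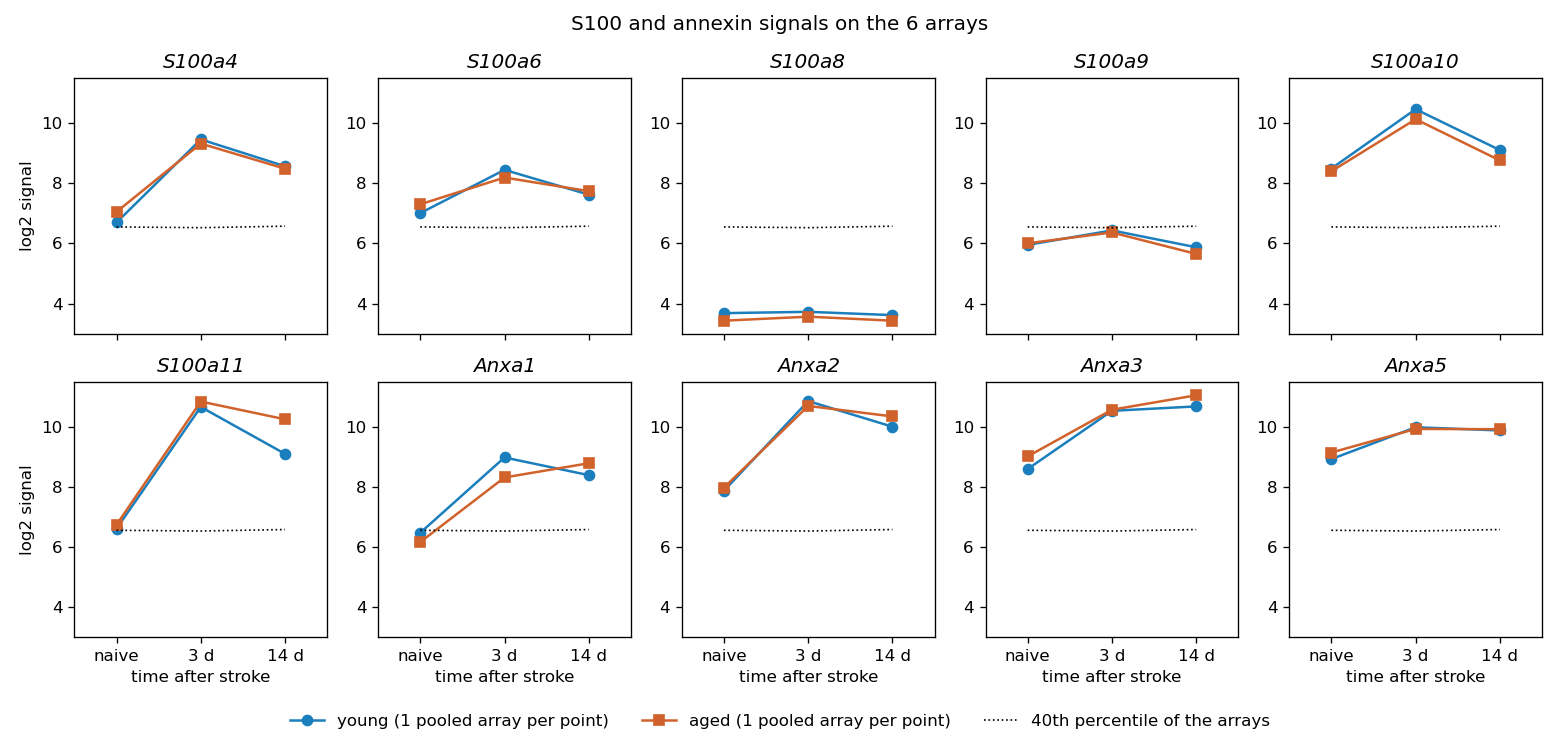
Log2 signal (vertical axis) of the 10 genes on the naive, 3 d and 14 d arrays (horizontal axis), with circles for young and squares for aged pools, 1 array per point, and a dotted line at the mean 40th percentile of the 2 arrays of each time. The 8 genes other than S100a8 and S100a9 lie higher after stroke at both ages, whereas S100a8 stays between 3.43 and 3.72 and S100a9 between 5.65 and 6.44.

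The first comparison set tissue around the infarct at 3 d against naive tissue. S100a11, S100a4, S100a6, S100a10 and all 4 annexins were higher at 3 d. With its brightest probe set S100a11 rose 16.9-fold, ahead of Anxa2 (7.24-fold), S100a4 (5.74-fold) and Anxa1 (5.03-fold). With the mean of its 3 probe sets S100a11 stood below Anxa2 and S100a4. Among all genes tested 14.4% rose in this comparison. The members with a call were 8 of the 8 tested, and 7 of these rose at least 2-fold, as 5.98% of genes did. In 8 of 8 both 3 d arrays lay above both naive arrays, as in 33.8% of genes. Since the members were chosen with earlier results of these data known, these shares describe them and are no test of the 2 families. Anxa1 had passed the level filter through its stroke arrays only. Without that filter 8 of all 10 members rose, with a median change over the 10 of 1.80, against 9.97% rising, 4.28% falling and a median of -0.07 over all 14497 genes.

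S100a11, a partner of Anxa1 that is known for a part in membrane resealing, had a log2 signal of 6.61 on the young and 6.74 on the aged naive array, 10.66 and 10.84 at 3 d, and 9.10 and 10.25 at 14 d. It thus moved from array percentiles of 41.2 and 43.5 in naive tissue to 96.1 and 96.9 at 3 d, with no overlap. The fitted rise at 3 d was 4.08 ± 0.24 (adjusted p = 8.72e-05), rank 8 of 10947 genes. The annotation gave S100a11 on 2 further probe sets. At 3 d the brighter of them differed from naive by 2.30 (young) and 2.40 (aged), and the dimmer by 0.60 and 1.26. RefSeq lists the related genes S100a11l1 and S100a11l2 and pseudogenes on other chromosomes, so which copy a probe set reads is uncertain. With the mean of the 3 probe sets the rise was 2.45 at 3 d and 1.63 at 14 d, and both passed.

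S100a4, which binds non-muscle myosin and is known from motile cells and reactive astrocytes, had signals of 6.70 (young) and 7.05 (aged) in naive tissue. They were 9.47 and 9.33 at 3 d, and 8.57 and 8.49 at 14 d. The 3 time points did not overlap: naive arrays were lowest, 14 d arrays intermediate and 3 d arrays highest. The rise at 3 d was 2.52 ± 0.15 (adjusted p = 9.42e-05).

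S100a6 (calcyclin), which binds the ubiquitin ligase adaptor Cacybp and is known from astrocytes, showed the same order at lower contrast. Its signals were 7.01 and 7.31 in young and aged naive tissue, 8.45 and 8.20 at 3 d, and 7.63 and 7.74 at 14 d. The rise at 3 d was 1.17 ± 0.15, a 2.25-fold change (adjusted p = 0.00197).

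S100a10 is unusual in its family because it is held in an active shape without calcium, and it carries membrane proteins and plasminogen to the cell surface together with Anxa2. Its signals were 8.50 (young) and 8.41 (aged) in naive tissue, 10.47 and 10.14 at 3 d, and 9.11 and 8.77 at 14 d. Aged values were the lower ones at each time, and the time points did not overlap. The rise at 3 d was 1.86 ± 0.13, a 3.62-fold change (adjusted p = 0.00014).

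Anxa2, the partner of S100a10 and a plasminogen-binding membrane protein, gave 7.87 and 7.97 in young and aged naive tissue, 10.86 and 10.69 at 3 d, and 10.002 and 10.34 at 14 d. Its rise at 3 d, 2.86 ± 0.15, ranked 31 of 10947 (adjusted p = 7.14e-05). Anxa1, which dampens inflammation through formyl peptide receptors, gave 6.47 and 6.16 in naive tissue, 8.98 and 8.31 at 3 d, and 8.39 and 8.78 at 14 d. Stroke arrays lay above naive arrays, but 3 d and 14 d arrays overlapped. Anxa1 rose by 2.33 ± 0.23 at 3 d (adjusted p = 0.000494). Both naive values lay below the 40th percentile of their arrays, so the size of this rise is less certain.

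Anxa3, an annexin of phagocytes and ramified microglia, gave 8.59 (young) and 9.01 (aged) in naive tissue, 10.53 and 10.57 at 3 d, and 10.68 and 11.05 at 14 d. It was the only member whose 14 d arrays both lay above its 3 d arrays. Its rise at 3 d was 1.75 ± 0.14 (adjusted p = 0.000224). Anxa5, known as the probe protein for phosphatidylserine on dying cells, had the smallest fitted rise of the 8 at 3 d, though not at 14 d. It went from 8.92 and 9.14 in naive tissue to 9.98 and 9.93 at 3 d and 9.88 and 9.92 at 14 d. Its rise at 3 d was 0.92 ± 0.13, or 1.90-fold (adjusted p = 0.00233). Its 14 d arrays differed from its 3 d arrays by -0.11 (young) and -0.01 (aged).

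Both subunits of calprotectin stood apart. S100a8 was at 3.68 (young) and 3.43 (aged) in naive tissue, 3.72 and 3.56 at 3 d, and 3.61 and 3.43 at 14 d, within the lowest 6.29% of probe sets on every array. S100a9 was at 5.95 and 6.01 in naive tissue, 6.44 and 6.37 at 3 d, and 5.87 and 5.65 at 14 d. For S100a9 the 3 d arrays were the highest at both ages, though all 6 values lay below the 40th percentile. In the fit without a level filter S100a8 changed by 0.09 ± 0.13 at 3 d (adjusted p = 0.678) and S100a9 by 0.42 ± 0.14 (adjusted p = 0.0764). At 14 d the changes were -0.03 (adjusted p = 0.913) and -0.22 (adjusted p = 0.351). Neither gene passed, and array values this low do not show that the RNA was absent.

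Markers of neutrophils, the cells known for calprotectin, were set beside these values. Of 10 listed neutrophil genes 4 were above the level filter, and 2 of those rose at 3 d: Csf3r, the receptor for granulocyte colony-stimulating factor, and Mmp8, neutrophil collagenase, which passed the filter through its stroke arrays only. The other 2 tested, the granule proteases Elane (-0.32, adjusted p = 0.239) and Prtn3 (-0.28, adjusted p = 0.186), did not pass and were lower at both ages. The granule and chemokine receptor genes Mpo, Camp, Ngp, Ltf, Retnlg and Cxcr2 stayed below the filter on every array. In all, 6 of the 10 genes were lower at 3 d at both ages, so the mean of the list rests on Mmp8 and Csf3r. That mean was 5.80 and 5.86 on the young and aged naive arrays, 6.10 and 6.12 at 3 d and 6.15 and 6.13 at 14 d. Of 9 monocyte and macrophage genes 9 rose at 3 d, where 14.4% of all genes tested rose. Of these, Ccr2, Cd14, Cd163, Fcgr1a and Plac8 had passed the level filter through stroke arrays only. The mean signal of the list went from 6.58 and 6.75 in naive tissue to 9.04 and 8.76 at 3 d and 8.31 and 9.10 at 14 d.

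**Figure D2:**
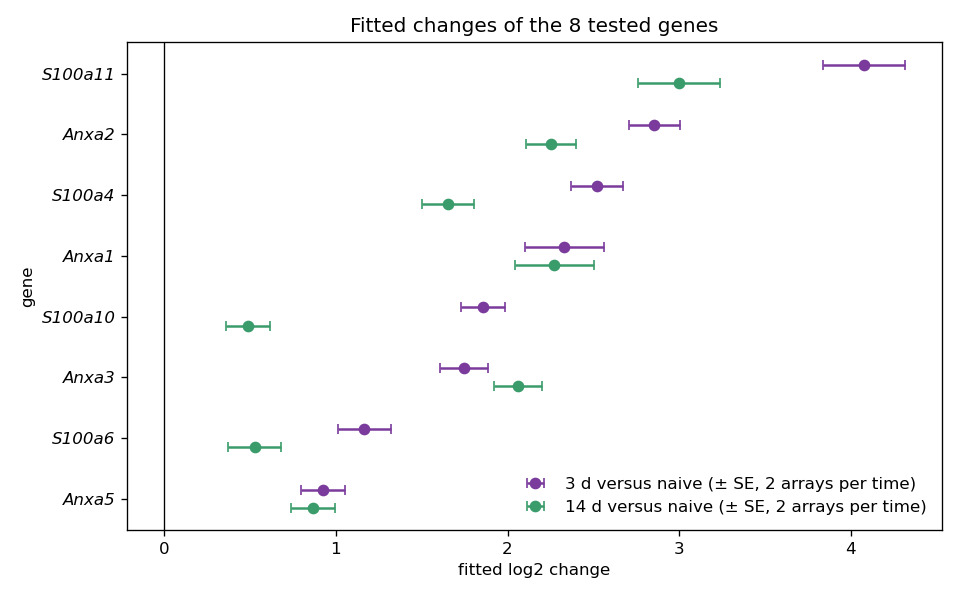
Fitted log2 change (horizontal axis) of the 8 tested genes (vertical axis) at 3 d and at 14 d against naive tissue, with standard errors as bars. S100a11, drawn with its brightest probe set, lies at 4.08 and 3.00 (2.45 and 1.63 with the mean of its 3 probe sets), and S100a10 and S100a6 lie nearest to 0 at 14 d (0.49 and 0.53).

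The second comparison asked the same of tissue at 14 d, against the same naive arrays. All 4 annexins and S100a4, S100a6, S100a10 and S100a11 were higher than in naive tissue, where 13.6% of all genes rose. Of these 8, 5 rose at least 2-fold (5.87% of genes), and in 8 of 8 both 14 d arrays lay above both naive arrays (28.3% of genes). S100a11 was 7.99-fold over naive with its brightest probe set (3.00 ± 0.24, adjusted p = 0.000216). With the mean of its probe sets (1.63) it stood below Anxa1, Anxa2, Anxa3 and S100a4. Anxa1 (4.84-fold, 2.27 ± 0.23), Anxa2 (4.77-fold, 2.25 ± 0.15) and Anxa3 (4.17-fold, 2.06 ± 0.14) followed, with adjusted p = 0.000589, 0.000132 and 0.000132. S100a4 was 3.15-fold higher (1.66 ± 0.15, adjusted p = 0.000398) and Anxa5 1.82-fold (0.87 ± 0.13, adjusted p = 0.00304).

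S100a6 and S100a10 were only slightly above naive at 14 d. S100a6 was higher by 0.53 ± 0.15 (1.44-fold, adjusted p = 0.0432) and S100a10 by 0.49 ± 0.13 (1.40-fold, adjusted p = 0.0292). The call of S100a6 ended without the young naive array (change 0.35, adjusted p = 0.302), without the aged naive array (adjusted p = 0.0964) or without the aged 14 d array (adjusted p = 0.108). It also ended with arrays centred on their median (adjusted p = 0.0603) and without a level filter (adjusted p = 0.0593). That of S100a10 ended without the young naive array (adjusted p = 0.224), the aged naive array (adjusted p = 0.0997) or the young 14 d array (adjusted p = 0.068), and with age left out of the model (adjusted p = 0.073). Without the filter 7 of all 10 members rose at 14 d, with a median of 1.26, against 9.4% rising, 6.63% falling and a median of -0.05 over all genes.

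The third comparison, 14 d against 3 d, used no naive array in its difference. S100a10 fell by 1.37 ± 0.13 (adjusted p = 0.00183) and S100a4 fell by 0.87 ± 0.15 (adjusted p = 0.026), where 1.82% of all genes fell. Without the filter the count was 2 of 10, against 1.23% of genes. In 6 of the 8 tested members both 14 d arrays lay below both 3 d arrays, against 21.9% of genes. Anxa5 is among these 6, although its aged arrays differed by only -0.01. The difference for S100a10 was -1.36 in young and -1.37 in aged rats, and for S100a4 it was -0.89 and -0.84. The call of S100a4 ended without the young 3 d array (adjusted p = 0.135), and that of S100a10 held without any single array (adjusted p from 0.000228 to 0.00709).

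With the mean of its 3 probe sets S100a11 changed by -0.83 between 3 d and 14 d and did not pass (adjusted p = 0.114). With its brightest probe set it changed by -1.08 ± 0.24 and did not pass either (adjusted p = 0.0652). Its young arrays differed by -1.56 and its aged arrays by -0.59. It passed without the aged 14 d array (-1.58, adjusted p = 9.34e-05) or the aged 3 d array (-1.31, adjusted p = 0.0222). S100a6 changed by -0.64 ± 0.15 (adjusted p = 0.0902) and Anxa2 by -0.60 ± 0.15 (adjusted p = 0.0945). With trended and robust variances both passed (adjusted p = 0.0358 and 0.00969). S100a6 also passed without the aged 3 d array (adjusted p = 0.0408), and Anxa2 without the aged 14 d array (adjusted p = 0.0165). Without the young 3 d array the changes were -0.41 for S100a6 (adjusted p = 0.723) and -0.41 for Anxa2 (adjusted p = 0.728). Without the young 14 d array that of S100a11 was -0.58 (adjusted p = 0.0564).

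The other annexins did not pass in either direction. Anxa5 changed by -0.06 ± 0.13 (adjusted p = 0.931), Anxa1 by -0.06 ± 0.23 (adjusted p = 0.967) and Anxa3 by 0.31 ± 0.14 (adjusted p = 0.453). For Anxa1 the near-zero value is the mean of opposite differences, -0.59 in young and 0.47 in aged rats. S100a10 and Anxa2, which form a complex as proteins, had changes of -1.37 and -0.60 over this interval. Whether these differ from each other was not tested.

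**Figure D3:**
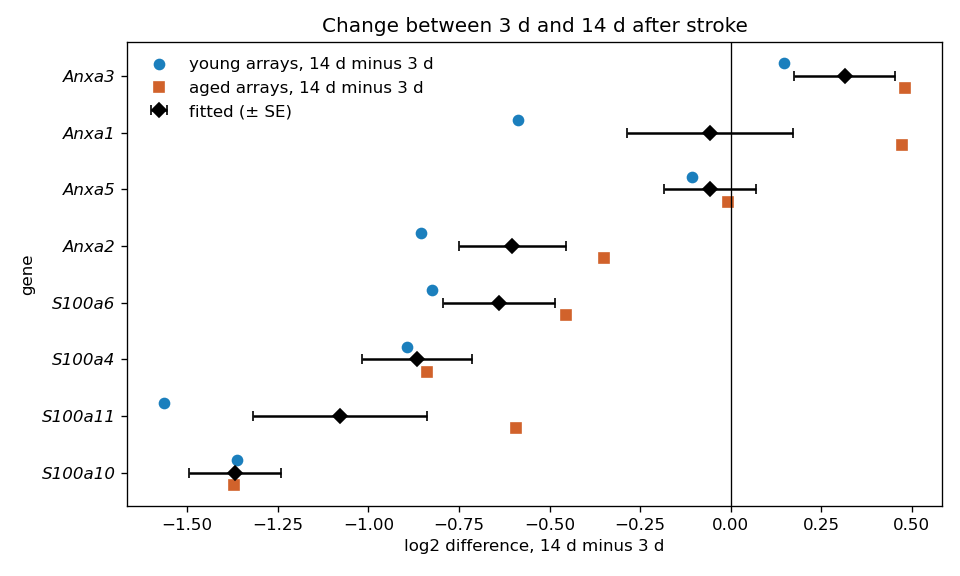
Log2 difference between 14 d and 3 d (horizontal axis) for the 8 tested genes (vertical axis), with the fitted value and its standard error in black, circles for the young and squares for the aged arrays. S100a10 lies at -1.37 with both ages together, whereas the ages of S100a11 (-1.56 and -0.59) and Anxa1 (-0.59 and 0.47) lie apart.

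Age was compared over the 3 matched pairs of arrays. No member passed between aged and young rats, and neither did any of the 10947 genes at an adjusted p under 0.05 (0% called). There were 852 genes (7.78%) at an unadjusted limma p under 0.05. With 3 pairs of pools and 2 residual degrees of freedom, this does not show that the ages were alike. S100a11 was higher in aged rats by 0.49 ± 0.20 and at 3 of 3 time points (adjusted p = 0.631). Anxa3 was higher by 0.28 ± 0.11, also at 3 of 3 (adjusted p = 0.637). S100a10 was lower, by -0.26 ± 0.10, at 3 of 3 (adjusted p = 0.631). For the other 5 tested members the fitted age difference lay between -0.19 (Anxa1) and 0.09 (Anxa2).

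Among the 10 genes the largest single difference between the ages was that of S100a11 at 14 d, 1.15 in aged minus young, against 0.13 in naive tissue and 0.18 at 3 d. It rests on 1 array per age and has no test. On the same 2 arrays the mean signal of the monocyte and macrophage markers was 9.10 in aged and 8.31 in young rats, with larger differences than that of S100a11 for Plac8 (1.69) and Cd68 (1.26). The part of these cells in the difference was not tested. In a fit that asked whether the age difference after stroke departs from that in naive tissue, no member and none of the 10947 genes passed (0% called), with 278 genes (2.54%) at an unadjusted limma p under 0.05. The fitted values ran from -0.46 ± 0.23 for S100a4 to 0.54 ± 0.40 for S100a11, each with adjusted p = 0.998. This fit had 1 residual degree of freedom, so only very large differences could have passed.

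Other genes of both families were compared in the same fit. Of 8 other S100 genes with a probe set, 5 were tested, and 2 rose at 3 d. S100a3, the neighbour of S100a4 in the chromosome 2 cluster, went from 6.25 and 6.34 in young and aged naive tissue to 7.70 and 7.94 at 3 d and 7.61 and 8.20 at 14 d. It rose by 1.52 ± 0.15 at 3 d (adjusted p = 0.000488) and 1.61 ± 0.15 at 14 d (adjusted p = 0.000406). Like Anxa1 it passed the level filter through its stroke arrays only, and without the filter it rose too (adjusted p = 0.000409 and 0.000335). S100a13, which helps growth factors without a signal peptide leave the cell, rose by 0.90 ± 0.21 at 3 d (adjusted p = 0.0193) and changed by 0.52 at 14 d (adjusted p = 0.102).

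S100b, the classic S100 protein of astrocytes and a serum marker of brain injury, did not pass at 3 d (-0.35 ± 0.13, adjusted p = 0.0859) or at 14 d (-0.01, adjusted p = 0.966). S100a1, known for calcium handling in muscle (-0.30, adjusted p = 0.199), and S100a16 (0.36, adjusted p = 0.139) did not pass at 3 d either. S100a5, S100a7a and S100g stayed below the level filter. In the RefSeq gene order S100a3, S100a4, S100a5 and S100a6 follow one another, and S100a7a, S100a8 and S100a9 come next. Genes that rose (S100a3, S100a4, S100a6) and a gene below the filter (S100a5) thus lie side by side. S100a11 and S100a10 are neighbours in a separate group of the same chromosome.

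Of 7 other annexins with a probe set 4 were tested, and Anxa4, an annexin of epithelia, was the only one that rose at 3 d (0.61 ± 0.12, adjusted p = 0.0117). At 14 d none of the 4 passed (Anxa4 0.35, adjusted p = 0.0728). Anxa6, the annexin with a doubled core, changed by 0.37 at 3 d (adjusted p = 0.07), and Anxa7 and Anxa11 by 0.12 and 0.18. Anxa8, Anxa10 and Anxa13 stayed below the filter.

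**Figure D4:**
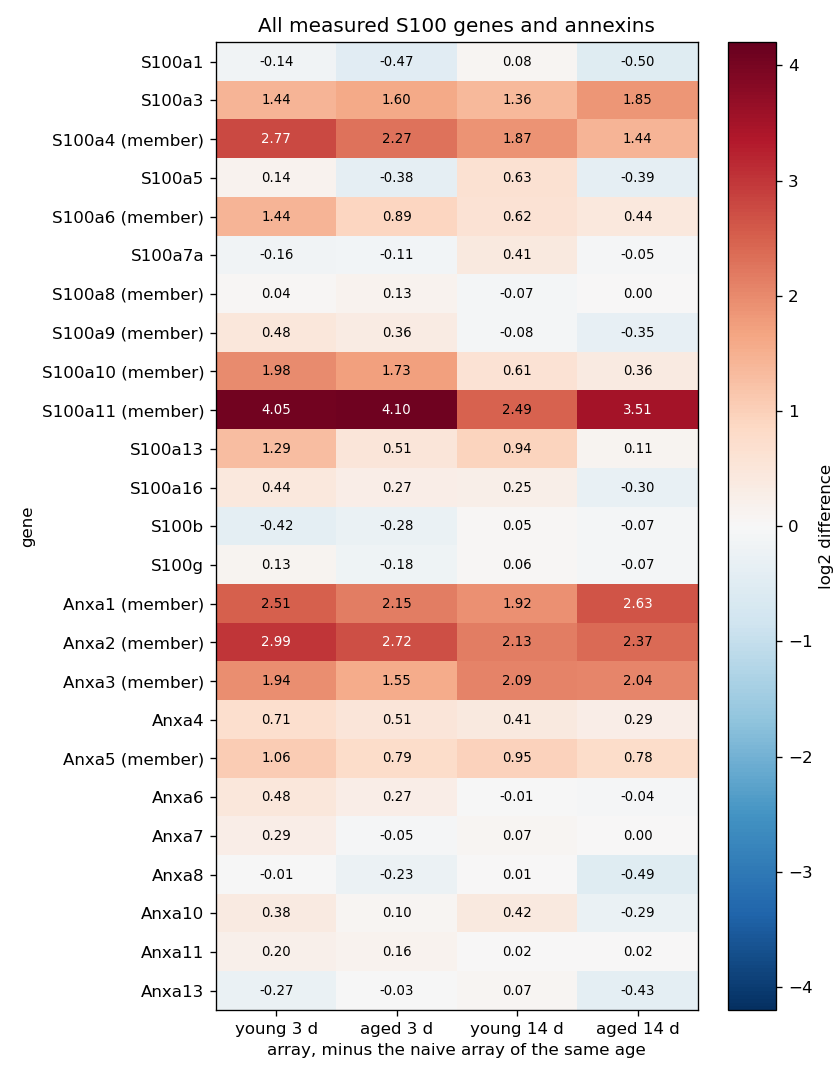
Log2 difference of each stroke array from the naive array of the same age (columns) for all measured S100 genes and annexins (rows), with the value in each cell and red for higher. The highest cells are those of S100a11 (4.05 and 4.10 at 3 d), and outside the 10 chosen genes S100a3 has values above 1 in all 4 columns.

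Receptors and partners of these proteins followed a mixed course. Of 16 tested genes on this list 4 rose and 2 fell at 3 d, and 4 rose and 2 fell at 14 d, where 14.4% and 13.6% of all genes rose and 7.87% and 11.4% fell. The list's median change was -0.05 at 3 d and -0.06 at 14 d, against -0.03 and -0.05 over all genes tested. Tlr4, a receptor that calprotectin activates, rose by 1.18 ± 0.19 at 3 d and 1.43 ± 0.19 at 14 d (adjusted p = 0.00424 and 0.00185). Its co-receptors Cd14 (2.32 at 3 d and 1.34 at 14 d) and Ly96 (1.49 and 1.41) rose at both times, and both had passed the level filter through stroke arrays only. Cd68, a lysosomal protein of macrophages that stands in the list without being a direct partner, rose by 3.55 and 4.14.

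Ager, the multiligand receptor RAGE that binds several S100 proteins, changed by -0.05 ± 0.16 at 3 d (adjusted p = 0.833) and 0.06 at 14 d (adjusted p = 0.814). Cacybp, the binding partner of S100a6, changed by -0.04 at 3 d (adjusted p = 0.83). Asic1, an acid-sensing channel whose surface level S100a10 is known to raise, fell by 0.62 at 3 d and by 0.71 at 14 d (adjusted p = 0.0133 and 0.00732). Htr4, a serotonin receptor that S100a10 binds, fell by 0.73 and by 0.70 (adjusted p = 0.0169 and 0.0182). Neuron markers were lower on the same arrays: their mean signal was 11.39 and 11.36 on the young and aged naive arrays, 10.95 and 10.99 at 3 d and 10.77 and 10.73 at 14 d. Their part in these falls was not tested.

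The Anxa2 and S100a10 complex is known as a platform for plasminogen activation. Of 9 tested genes of that system 4 rose and 1 fell at 3 d (list median 0.49), where 14.4% of all genes rose and 7.87% fell. At 14 d 3 rose and 1 fell (list median 0.23), where 13.6% of all genes rose and 11.4% fell. Plau, the urokinase activator, rose by 2.17 ± 0.18 at 3 d and 1.92 ± 0.18 at 14 d (adjusted p = 0.000248 and 0.000449). Plat, the tissue activator that binds this complex, rose by 0.65 and 0.69, and Thbd, thrombomodulin, by 0.89 and 0.47. Plau and Thbd had passed the level filter through stroke arrays only. Serpini1 (neuroserpin), an inhibitor of Plat in neurons, fell by 0.49 and by 0.47. Plaur, the urokinase receptor, rose at 3 d (0.58, adjusted p = 0.0162). Plg, plasminogen itself, stayed below the level filter.

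Among 11 tested genes of membrane repair, in which annexins take part, 5 rose at 3 d (list median 0.33, 14.4% of all genes rising). At 14 d 2 rose and 1 fell (list median 0.17), that is 18.2% and 9.09%, near the 13.6% and 11.4% of all genes. Ehd2, a membrane-shaping ATPase, rose by 1.13 ± 0.17 and 0.74 ± 0.17, and Capn1, a calcium-activated protease that cleaves annexins, by 0.91 ± 0.14 and 0.76 ± 0.14. Cav1, a coat protein of caveolae, rose at 3 d (0.59, adjusted p = 0.0489), as did the protease Capn2 (0.56, adjusted p = 0.0208) and the repair protein Dysf (0.42, adjusted p = 0.045). Without the level filter the calls of Cav1 (adjusted p = 0.0625) and Dysf (adjusted p = 0.0691) ended, as did that of Syt7, which fell at 14 d (-0.46, adjusted p = 0.036, and 0.0551 without the filter).

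Profiles over the 6 arrays were compared after each gene's own mean was subtracted, and the nearest tested genes outside the 10 were named by the root mean square log2 difference. For S100a4 these were Lgals1 (galectin-1, 0.14), Emp3 (0.17) and Tagln2 (0.17). For S100a11 they were Timp1 (0.25), Apobec1 (0.29) and Lgals3 (0.30), and for S100a10 Tmem252 (0.07), Hist1h2af (0.12) and Hist1h2an (0.12). For S100a6 they were A3galt2 (0.07), Ppp1r14b (0.08) and Litaf (0.10). Among annexins, Anxa3 lay nearest to Laptm5 (0.08), Cmtm3 (0.11) and Ptpn6 (0.11), and Anxa5 to Ctsb (0.05), Capn1 (0.07) and Mcl1 (0.07). Anxa2 lay nearest to Osmr (the oncostatin M receptor, 0.17), C3ar1 (0.18) and Ctsc (0.19), and Anxa1 to Osmr (0.18), Siglec1 (0.18) and Serpinf1 (0.20). For S100a9 the nearest were Slc41a2 (0.07), Ube2c (0.08) and Clspn (0.08), and S100a8 was near Smug1, Ttyh3 and Etv5 (each 0.04). Within the 10, the nearest pair with a rise was S100a6 and Anxa5 (0.25), followed by S100a4 and Anxa2 (0.28) and by Anxa1 and Anxa2 (0.32). By this measure genes that change little lie near one another, and S100a6 and Anxa5 had the smallest ranges of the 8 tested members (1.44 and 1.06). Their Pearson correlation was 0.86, against 0.99 for S100a11 and Anxa2, the highest among the pairs of these 8.

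**Figure D5:**
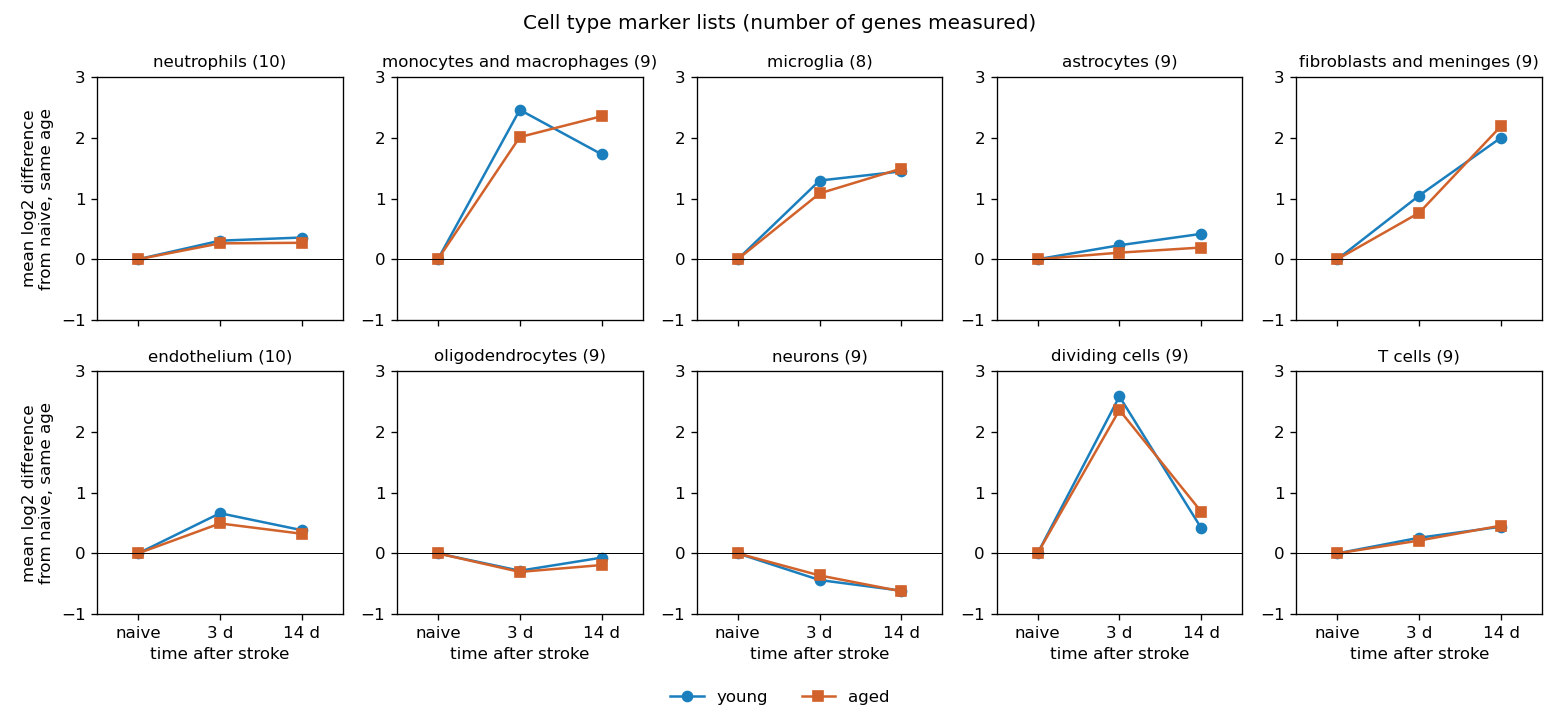
Mean log2 difference from the naive array of the same age (vertical axis) for 10 lists of cell type markers at each time (horizontal axis), circles for young and squares for aged pools. Monocyte and macrophage markers are up by 2.46 and 2.01 at 3 d, dividing-cell markers by 2.59 and 2.36, and neutrophil markers by 0.31 and 0.26, a mean that rests on 2 of 10 genes.

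Markers of several cell types moved over the same arrays as the S100 and annexin genes. The mean signal of 8 microglia genes was higher by 1.30 (young) and 1.08 (aged) at 3 d and by 1.45 and 1.49 at 14 d. At both times 8 of the 8 rose, where 14.4% (3 d) and 13.6% (14 d) of all genes tested rose. The call of Tmem119 at 3 d (adjusted p = 0.0458) ended without the level filter (adjusted p = 0.0678). The mean of 9 fibroblast and meningeal genes was higher by 1.05 and 0.77 at 3 d and by 2.0 and 2.20 at 14 d. Igf2 of this list was lower at 3 d at both ages (-0.34 and -0.24). The mean of 9 dividing-cell genes was higher by 2.59 and 2.36 at 3 d and by 0.42 and 0.69 at 14 d. Astrocyte markers differed by 0.23 and 0.11 at 3 d and by 0.42 and 0.19 at 14 d. Of 9 tested 2 rose and 1 fell at 3 d, where 14.4% of all genes rose and 7.87% fell. Gfap rose by 1.86 and Gja1 by 0.43 (adjusted p = 0.0372, and 0.059 without the level filter), while Gjb6 fell (-0.59, adjusted p = 0.0135). Endothelial markers differed by 0.66 and 0.49 at 3 d and by 0.38 and 0.32 at 14 d. T cell markers differed by 0.26 and 0.21 at 3 d and by 0.44 and 0.46 at 14 d. Of 5 tested, 2 rose at each time (Cd4 and Cd8a at 3 d, Cd4 and Cd6 at 14 d). Without the level filter the call of Cd6 ended (adjusted p = 0.0497, and 0.0751 without it). Cd3e, Cd3d, Cd3g and Cd2 stayed below the filter. At 3 d Cd3d and Cd5 were lower at both ages, and Cd3e, Cd3g, Cd2 and Lck were lower in young rats only. The mean at 3 d thus rests mainly on Cd4 and Cd8a, and Cd8a had passed the level filter through stroke arrays only. At 14 d the largest differences of the list at both ages were those of Cd4 (2.16 and 2.06). Oligodendrocyte markers differed by -0.29 and -0.31 at 3 d and by -0.07 and -0.19 at 14 d. Of 9 tested 3 fell at 3 d, where 7.87% of all genes fell. At 14 d 1 rose and 1 fell, near the 13.6% and 11.4% of all genes. Cldn11 was higher at both ages at 3 d (0.32 and 0.30) and at 14 d (0.62 and 0.67), where it passed (adjusted p = 0.0074). Mag was also higher at both ages and times. Mog fell at 14 d (adjusted p = 0.0462, and 0.0716 without the level filter). No cell type was separated before RNA extraction, and the part of any of them in the changes of the 10 genes was not tested.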

How the data were processed

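Per the submitters' processing notes the authors used R 2.14.0 and its affy package. How they corrected background, normalized and summarised, and with which genome build, is not given in the sources used here. The log2 values were made by the authors before deposit as 1 summary per probe set, with the base of the log inferred here from their range; folds depend on it. Arrays had nearly equal medians, which would hide an overall change of RNA content, and array signals compress large folds. No batch was given, so batch and group cannot be told apart. Of 28826 probe sets 15209 had 1 gene symbol, 306 had several and 13311 are unnamed here. RefSeq (GRCr8, used for names and promoters) held 15178 of the single-symbol probe sets, and 0 symbols changed. Probe sets at or above the 40th percentile on at least 1 array were kept (11513), and the highest mean stood for a gene.

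An additive model of time and age was fitted over all 6 arrays with limma 3.58.1 (R 4.3.3), leaving 2 residual degrees of freedom (prior 5.56), with Benjamini-Hochberg adjustment over 10947 genes. A second fit added age by stroke (1 residual degree of freedom). Opposite changes at the 2 ages count as error. The p-values rest on how far these pools depart from the additive model, with each gene's variance drawn towards that of all genes tested. No spread between animals was measured. The functions were tested on simulated data. The members and the other family, cell type, partner, plasminogen and membrane repair lists were matched by symbol: 21 of 180 entries had no probe set. All 10 members were named. So were other family genes, up to 4 called genes per further list by size of change and the 3 nearest profiles per member. Further genes were named after their values were seen: Ager, Cacybp, Asic1, Htr4, Serpini1, Plg, Dysf, Syt7 and Plac8. The same holds for the neutrophil, monocyte and macrophage, microglia, astrocyte, oligodendrocyte, fibroblast and T cell genes. The members and lists were chosen with earlier results of these data known. Alternatives were quantile normalization, median centring, other filters, the mean of probe sets, trended and robust variances, age or time left out, and each array left out.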

Additional observations from a re-analysis of the deposited data

Results flagged for a closer look

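In several genes the young and the aged arrays moved in opposite directions. These differences rest on 1 array per group and were not tested singly. From 3 d to 14 d, Anxa1 differed by -0.59 (young) and 0.47 (aged). S100a8 is listed only because its signs differ: at 14 d against naive it differed by -0.0665 (young) and by 0.0001 (aged), which is no movement.

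Among the other family genes, S100a1 differed at 14 d against naive by 0.0779 (young) and -0.50 (aged), and from 3 d to 14 d by 0.22 and -0.0306. S100a3 differed from 3 d to 14 d by -0.0842 and 0.26. At 14 d against naive S100a16 differed by 0.25 and -0.30, and S100b by 0.0484 and -0.0686. Anxa7 differed at 3 d against naive by 0.29 and -0.0486, and from 3 d to 14 d by -0.22 and 0.0496.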

How the results depend on the processing

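All 8 tested members kept their rise at 3 d under every alternative run, and 7 of them or more kept it at 14 d except without either naive array (6). With 1 array left out, the members called were 8 to 8 at 3 d, 6 to 8 at 14 d and 1 to 4 for 14 d against 3 d. With trended and robust variances 4 members fell from 3 d to 14 d. Leaving out 1 array gave 746 to 3726 genes past the threshold at 3 d (2432 with all arrays), 752 to 3470 at 14 d (2734), 221 to 573 for 14 d against 3 d (346) and 0 to 2 for age (0). Trended and robust variances gave 1 gene for age and 45 for the age difference after stroke against naive, 0 of them members. With array medians centred the share of called genes that rose at 14 d moved from 54.5% to 44.2%, with the median of all genes at -0.11. Arrays were paired by age through the age term, and with age left out 8 members rose at 3 d and 7 at 14 d. No pairing of animals or replicates was possible, because each group had 1 pooled array and the labels give no replicate numbers to pair by. The age by stroke fit was not run with an array left out, since no residual degree of freedom remained. The number of arrays and their low signals limit what S100a8 and S100a9 can show.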
